A study of Caenorhabditis elegans with 51 samples.

Results

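The 9 genes pgl-1, pgl-3, glh-1, glh-2, glh-4, deps-1, prg-1, csr-1 and wago-1 encode proteins of the germ granules of Caenorhabditis elegans and Argonautes that act in the germline. They were chosen by symbol, and each was found by its WormBase gene identifier among the 44200 genes of the count tables: WBGene00003992 for pgl-1, WBGene00003994 for pgl-3, WBGene00001598 for glh-1, WBGene00001599 for glh-2, WBGene00001601 for glh-4, WBGene00022034 for deps-1, WBGene00004178 for prg-1, WBGene00017641 for csr-1 and WBGene00011061 for wago-1. All 9 passed the filter on low gene counts in every experiment.

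P granules are condensates of RNA and protein that sit on the outer face of germ cell nuclei, over the nuclear pores. PGL-1 and PGL-3 are RNA-binding scaffold proteins of the granule, GLH-1, GLH-2 and GLH-4 are RNA helicases of the Vasa family, and DEPS-1 is a granule protein needed for normal P granules. Argonautes in these granules bind small RNAs and use them to recognise transcripts: PRG-1 binds piRNAs, CSR-1 binds small RNAs made against transcripts of germline genes, and WAGO-1 binds small RNAs that act in silencing.

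The study asked how transcription ends when xrn-2, the gene of the nuclear exoribonuclease XRN2, is impaired, and RNA came from whole L4 larvae. The xe31 group was strain HW1660, which carries the temperature-sensitive xrn-2(xe31) allele, the catalytic-dead group was HW2216, which carries xrn-2(D234/236A)::gfp on top of xrn-2(xe31), and WT was N2. These animals grew for 59 h at 15 °C, from L1 to early L4, and were then kept at 26 °C: the time course has 1 library of xe31 and 1 of WT at each hour from 0 to 10 h, the catalytic-dead strain and its own WT have 1 each at 6 h and 10 h, and the RNA of both strains of the time course at 6 h and 10 h was sequenced again more deeply. For RNAi, N2 larvae at 20 °C were fed bacteria against xrn-2 or mock bacteria with the empty vector, starting as L1, and were taken at mid-L4. This gave 1 polyA library each, and 2 xrn-2 RNAi and 1 mock library depleted of rRNA. The catalytic-dead strain keeps xe31 in its background, so its effect is that of both alleles together.

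Gene counts per library ranged from 41238235 to 57832479 in the time course, from 239213652 to 253142688 in the resequenced set, from 49628394 to 74356542 in the catalytic-dead set, from 21695913 to 23817072 in the rRNA-depleted set, and were 44605077 in the xrn-2 RNAi and 36463650 in the mock polyA library. The xrn-2 transcript stood at 201 to 254 CPM (read counts scaled to library size, TMM-normalised) in late xe31 libraries against 108 to 119.02 in WT, and at 504 and 428 in the catalytic-dead strain against 110 and 124 in its WT. In the polyA pair, where CPM are scaled to total counts without TMM, it stood at 79.5 in xrn-2 RNAi against 132 in mock. Rank correlation over 17114 genes placed 9 of the 11 xe31 libraries nearest the WT library of their own hour, with the 4 h and 5 h libraries nearest the next hour. The catalytic-dead libraries of 6 h and 10 h were nearest WT at 2 h and 3 h (Spearman's rho 0.936 and 0.902), and their WT libraries nearest WT at 7 h and 10 h. The polyA xrn-2 RNAi library was nearest WT at 3 h and its mock nearest WT at 7 h.

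Through L4 most of these genes climbed, either to the last hours or to a top at 4 to 6 h. In WT the hour trend, a log2 change per hour fitted over 11 libraries, was upward for 7 of the 9 genes (edgeR quasi-likelihood test, Benjamini-Hochberg (BH) adjusted p under 0.05), beside 27.6% of 15895 genes that were called upward. In xe31 it was upward for 4 of 9, beside 27.4% of 16395 genes. DESeq2 called 6 of 9 upward in xe31, beside 32.3% of all genes, and 7 in WT, beside 31.9%. Neighbouring hours are not independent, so the p-values describe these courses and no repeat of them. Counts are per whole animal and carry no cell type, so fewer germ cells and less RNA per germ cell cannot be told apart in any result here.

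The helicase gene glh-2 had the steepest course. Its level was lowest at 26.5, median 64.6 and highest 118 CPM in xe31, and lowest at 23.6, median 63.4 and highest 133 CPM in WT. The 10 h library was 4.22 times the 0 h library in xe31 and 5.61 times in WT. The slope was 0.22 ± 0.013 log2 per hour in xe31 (SE, adjusted p = 7.61e-07 by edgeR) and 0.27 ± 0.012 in WT (adjusted p = 1.68e-07 by edgeR). wago-1 ran from a lowest of 256 through a median of 427 to a highest of 539.9 CPM in xe31, and from 228 through 427 to 691 CPM in WT. Its slope was 0.12 ± 0.012 in xe31 and 0.17 ± 0.011 log2 per hour in WT. Both genes were still at or near their top at the last hour in WT.

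The scaffold gene pgl-3 and the helicase gene glh-4 made most of their climb in the first 4 h. pgl-3 spanned 100.2 to 238 CPM in xe31 (median 198) and 88.96 to 250.4 CPM in WT (median 218). glh-4 spanned 63.6 to 157 CPM in xe31 (median 149) and 58.3 to 177 CPM in WT (median 155). The slope of pgl-3 was 0.11 ± 0.015 log2 per hour in xe31 and 0.11 ± 0.027 in WT, and that of glh-4 was 0.11 ± 0.025 in xe31 and 0.14 ± 0.028 in WT. deps-1 had a slope of 0.072 ± 0.031 in xe31, which missed the threshold (adjusted p = 0.0677 by edgeR), and one of 0.16 ± 0.024 in WT (adjusted p = 2.84e-04 by edgeR).

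The remaining 4 genes were highest in the middle of the course. pgl-1 was highest at 6 h in both strains, 619 CPM in xe31 and 650.2 CPM in WT, and its 10 h level was 0.701 times that top in xe31 and 0.817 times in WT. glh-1 was highest at 5 h, 887 CPM in xe31 and 924 CPM in WT, and ended at 581 in xe31 and 614 in WT. prg-1 topped at 373 CPM at 5 h in xe31 and at 387 CPM at 4 h in WT, and csr-1 at 5 h with 506 in xe31 and 477 in WT. The slopes of pgl-1 and csr-1 were called upward in WT (0.077 ± 0.025 and 0.076 ± 0.028 log2 per hour) and missed the threshold in xe31 (adjusted p = 0.0815 and 0.179 by edgeR). Both calls in WT depend on the setting, and held under 10 of 13 alternatives for pgl-1 and under 6 of 13 for csr-1. A straight line describes such humped courses poorly, and glh-1 and prg-1 passed the slope test in neither strain.

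**Figure D1:**
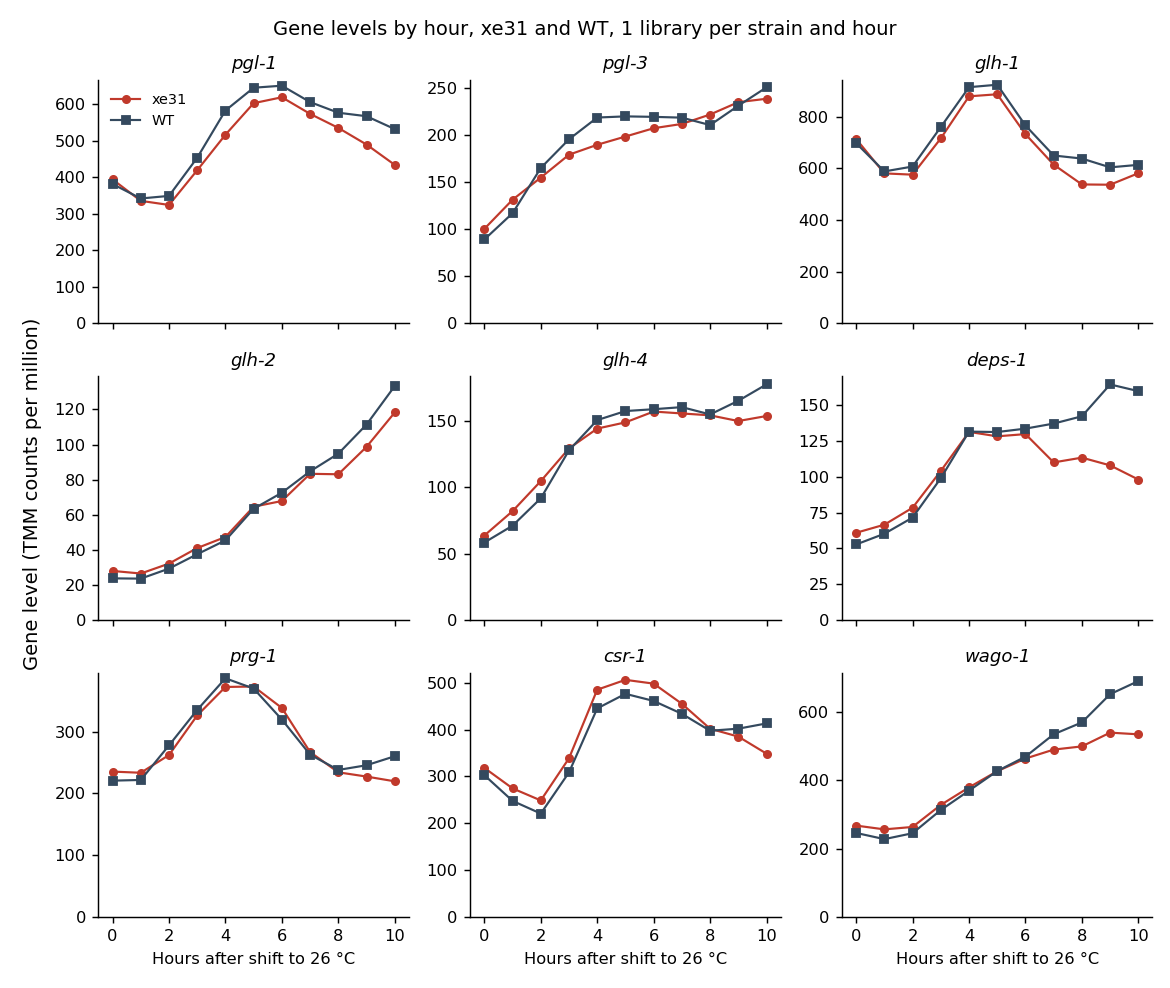
Levels of the 9 genes in CPM (TMM-normalised, vertical axis) by hour after the shift to 26 °C (horizontal), with circles for xe31 and squares for WT, 1 library per point. glh-2 and wago-1 climb to the last hour in WT, while pgl-1, glh-1, prg-1 and csr-1 are highest at 4 to 6 h. deps-1 of xe31 lies below WT from 6 h on.

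The difference between the slopes of the strains, xe31 minus WT, was called for 0 of the 9 genes by edgeR, beside 6.12% of 16689 genes called in either direction. At an unadjusted p under 0.05 it was lower for 3, beside 7.67% of all genes, and DESeq2 called 1 lower, wago-1, beside 4.37%. Across the 22 libraries the log2 levels of glh-2 and wago-1 had a Pearson r of 0.987 and those of pgl-3 and glh-4 one of 0.978. glh-1 and prg-1 had 0.867, and glh-1 and glh-2 had -0.148. These are descriptions, since the libraries share hours and strains. Among genes outside the set, the level of gei-14 was most like that of glh-2 (r = 0.994), smz-1 most like glh-4 (0.988), ugt-30 most like pgl-1 (0.977), syp-2 most like pgl-3 (0.968), col-159 most like csr-1 (0.959), ephx-1 most like prg-1 (0.957) and lonp-2 most like glh-1 (0.937), each over the same 22 libraries. For deps-1 it was F07H5.10 (0.973), and for wago-1 a gene with no symbol in the name table, WBGene00016243 (0.992).

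In the late window, 6 to 10 h, 5 of the 9 genes were lower in xe31 than in WT and none was higher: deps-1, wago-1, pgl-1, glh-2 and glh-1. Of all 17123 genes tested, 20.8% were called lower and 2967 genes were called higher. The changes were small, with a median of -0.13 on the log2 scale over the 9 genes and -0.029 over all genes tested. deps-1 moved most. It had 129.7, 110.0, 113, 108 and 98.1 CPM in xe31 at 6, 7, 8, 9 and 10 h, against 134, 137, 142.2, 164 and 159.7 CPM in WT. The strains do not overlap, and all 5 hours of xe31 lie below every WT hour (log2 change -0.40 ± 0.07 SE, adjusted p = 0.00156 by edgeR). How many of all genes tested separate in this way was not counted, so the separation does not set deps-1 apart from them.

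wago-1 had 464, 490.1, 499.6, 539.9 and 535 CPM in xe31 over the same hours, against 469, 535, 569.9, 653 and 691 CPM in WT. The ranges overlap, but xe31 was lower at each of the 5 hours, with the widest gap at the end (log2 change -0.20 ± 0.045 SE, adjusted p = 0.00531 by edgeR). pgl-1 had 619, 573, 535, 489 and 434 CPM in xe31, against 650.2, 605, 576, 567 and 532 CPM in WT. This scaffold gene was also lower at 5 of 5 hours, with overlapping ranges (log2 change -0.15 ± 0.04 SE, adjusted p = 0.0104 by edgeR).

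Of the helicases, glh-2 averaged 90.2 ± 19.1 CPM in xe31 and 99.4 ± 23.7 CPM in WT (SD over 5 hours), lower at 5 of 5 hours (log2 change -0.13 ± 0.03 SE, adjusted p = 0.00958 by edgeR). glh-1 averaged 600.5 ± 80.6 CPM in xe31 and 654 ± 65.1 CPM in WT, again lower at 5 of 5 hours (log2 change -0.13 ± 0.03 SE, adjusted p = 0.0133 by edgeR). glh-4 (-0.083 ± 0.036), prg-1 (-0.055 ± 0.046), csr-1 (-0.022 ± 0.047) and pgl-3 (-0.020 ± 0.042) did not pass, with adjusted p from 0.0901 to 0.745 by edgeR. Against WT set 1 hour earlier the calls of glh-2 and wago-1 were lost, and against WT set 1 hour later those of glh-1 and pgl-1. With no hour block only deps-1 was called, and glh-1 missed the threshold without 8 h (adjusted p = 0.0598 by edgeR) or without 9 h (adjusted p = 0.0564 by edgeR). deps-1 kept its call under all 11 alternatives, with adjusted p from 4.8e-05 to 0.0461 by edgeR or DESeq2.

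In the early window, 0 to 2 h, the direction was the other one for glh-2 and glh-4, which were the 2 of 9 genes called higher in xe31, beside 6.67% of all genes tested. glh-2 had 28.01, 26.5 and 32.2 CPM in xe31 at 0, 1 and 2 h, against 23.8, 23.6 and 29.3 CPM in WT (log2 change 0.18 ± 0.05 SE, adjusted p = 0.0332 by edgeR). glh-4 had 63.6, 81.9 and 104.5 CPM in xe31, against 58.3, 71.0 and 91.5 CPM in WT (log2 change 0.17 ± 0.05 SE, adjusted p = 0.0432 by edgeR). For both genes xe31 was higher at each hour, with overlapping ranges. The same held at each hour for wago-1, deps-1 and csr-1, which were not called. Early ranges of wago-1 did not overlap, 256 to 267 CPM in xe31 against 228 to 246 CPM in WT (log2 change 0.13 ± 0.06 SE, adjusted p = 0.254 by edgeR). Of the 9 fitted changes 2 lay below 0. The calls of glh-2 and glh-4 are fragile: without any 1 of the 3 hours, with no hour block or without a filter on low counts, 0 of the 9 genes were called. Against WT set 1 hour later both directions turned, to -0.042 for glh-2 and -0.20 for glh-4, neither called, and pgl-3 was called lower (-0.30). In the middle window, 3 to 5 h, edgeR and DESeq2 each called 0 of 9, beside 15.5% of all genes called in either direction by edgeR; at an unadjusted p under 0.05, 2 were lower, beside 13.0% of all genes.

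The late effect minus the early effect was itself tested and was called lower for 4 of 9, beside 13.3% of all genes. It was -0.56 ± 0.12 for deps-1, -0.33 ± 0.07 for wago-1, -0.31 ± 0.06 for glh-2 and -0.26 ± 0.06 for glh-4 on the log2 scale (SE, adjusted p = 0.00961, 0.0107, 0.00389 and 0.0118 by edgeR). Without 1 h, 2 of the 9 genes were called, beside 1056 of 17125 genes called lower. Both scaffold genes, glh-1, prg-1 and csr-1 did not pass this test.

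**Figure D2:**
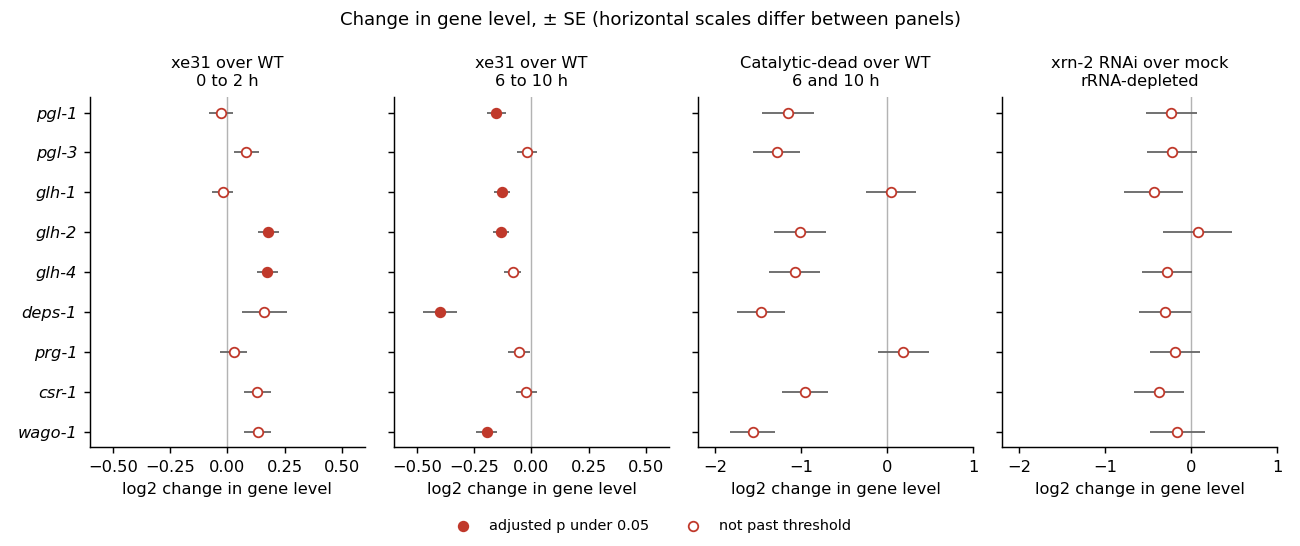
Log2 change in gene level ± SE (horizontal; scales differ between panels) for the 9 genes in xe31 over WT at 0 to 2 h and at 6 to 10 h, in the catalytic-dead strain over its WT, and in xrn-2 RNAi over mock with rRNA depletion. Filled points passed an adjusted p of 0.05: glh-2 and glh-4 lie above 0 in the early panel, and deps-1, wago-1, pgl-1, glh-2 and glh-1 below 0 in the late panel.

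Other genes of the same pathways, from lists drawn up with earlier results of these data known, were lower in late xe31 more often than higher. Beside each list, 20.8% of all 17123 genes were called lower and 2967 genes were called higher. Of 16 other germ granule components 11 were called lower and none higher (median -0.19 on the log2 scale, against -0.029 over all genes). They include cgh-1, an RNA helicase of germline RNP granules (971.7 ± 239 CPM in xe31 and 1331 ± 383 CPM in WT, SD over 5 hours; log2 change -0.44 ± 0.05 SE), mip-1 (-0.40 ± 0.04) and ifet-1, the eIF4E-binding repressor of translation (-0.39 ± 0.06). Of 17 other Argonaute genes 7 were lower, with a median of -0.11, among them hrde-1, a nuclear Argonaute of inherited silencing (213 ± 10.9 CPM in xe31 and 277 ± 74 CPM in WT; log2 change -0.34 ± 0.09 SE), ppw-1 (-0.33 ± 0.06) and sago-2 (-0.29 ± 0.06).

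Of 22 mutator and Z granule genes 13 were lower and 1 higher, with a median of -0.17. The lowest were mut-2, a nucleotidyltransferase of the mutator complex (13.7 ± 2.5 CPM in xe31 and 24.0 ± 7.4 CPM in WT; log2 change -0.77 ± 0.08 SE), smut-1 (-0.76 ± 0.07) and rde-8 (-0.47 ± 0.07). Of 14 piRNA biogenesis genes 7 were lower and 1 higher, with a median of -0.15. tofu-6 stood at -0.51 ± 0.07 and tofu-1 at -0.38 ± 0.06, while xrn-1, the cytoplasmic exoribonuclease on that list, was higher (80.6 ± 6.4 CPM in xe31 and 60.3 ± 4.6 CPM in WT; log2 change 0.42 ± 0.05 SE). All of these log2 changes passed an adjusted p of 0.05 by edgeR.

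Germ cell markers moved in the same hours, and the sperm markers before them too. Of 20 germline genes that stand on none of the lists above, 15 were lower and 1 higher in late xe31. Their summed level was 1486 to 1569 CPM in xe31 against 1627 to 2050 CPM in WT (0 to 2 h: 1189 to 1270 against 1110 to 1167). Of 9 oocyte markers 7 were lower (967 to 3246 CPM in xe31 against 971 to 4782 CPM in WT), and of 10 sperm markers 6 were higher (668 to 781 against 550.4 to 725). At 0 to 2 h 6 sperm markers were already called higher, beside 6.67% of all genes (20.3 to 97.5 CPM against 12.4 to 54.2 CPM in WT). Their median log2 change was 1.01 then and 0.17 in the late window. Of the oocyte markers 1 was called higher at 0 to 2 h, and of the germline list 0. No marker of these 3 lists was at 0 in a late library. Of 7 body wall muscle markers 1 and of 6 intestine markers 2 were lower in late xe31. Of 7 epidermis markers 3 and of 7 neuron markers 1 were higher. Beside these lists, 20.8% of all genes were called lower and 2967 of 17123 higher. Counts of 1 of 7 or 2 of 6 therefore do not set a list apart. The part of these shifts in the levels of the granule genes was not tested.

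Downstream of the gene ends the picture differed: 8 of the 9 genes had more reads past their end, relative to the gene itself, in late xe31 than in WT. Readthrough is taken here as the ratio of counts in the window downstream of a gene to counts in the gene, tested with both sets of counts in a single edgeR model. All 9 genes passed its filter, glh-1, glh-2 and pgl-1 only through their xe31 counts, and of 11263 genes tested 48.1% were called higher, so a call as such does not set these genes apart. For glh-1, glh-2 and pgl-1 the filter favoured high xe31 counts, so nothing is read from their calls, adjusted p or ranks. The other called genes differed in size, from a log2 change of 1.87 for csr-1 to 4.28 for prg-1, against a median of 1.07 over all genes tested. The sources used here give neither window length nor strand, and a window can hold reads of a neighbouring gene.

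Of the helicase genes, glh-1 and glh-2 are described by their counts, and glh-4 was not called. glh-2 had 107, 188, 293, 759 and 1696 downstream counts in xe31 at 6, 7, 8, 9 and 10 h, against 2, 3, 3, 0 and 3 in WT. Per 1000 gene counts this was 27.1, 38.1, 56.9, 131 and 256 in xe31, and at most 0.583 in WT. Each xe31 hour lies far above each WT hour, and the highest is the last. The sums over the window, 3043 in xe31 and 11 in WT, give a 287-fold higher ratio (exact 95% interval 160 to 576, counting error only). The fit gave a log2 change of 7.91 ± 0.38 SE.

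glh-1 had 31, 83, 157, 367 and 349 downstream counts in xe31, against 2, 0, 0, 1 and 0 in WT. Its ratio was 5.60 per 1000 gene counts in xe31 and 0.0164 in WT over the window, a 342-fold difference with an interval of 117 to 1660. The fitted log2 change was 7.999 ± 0.556 SE. With so few WT counts the fitted size is uncertain, and it ran from 4.78 to 9.29 over the alternatives. glh-1 and glh-2 are close paralogs, and reads of near-identical stretches could have been split between them or dropped by the counting. glh-4 had 0, 0, 1, 5 and 3 downstream counts in xe31, against 1, 6, 2, 1 and 2 in WT. With 9 against 12 counts in sum, the ratio was 0.754 times that of WT (exact 95% interval 0.281 to 1.95), and it did not pass the test (log2 change -0.38 ± 0.75 SE, adjusted p = 0.707 by edgeR).

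Among the scaffold genes, pgl-1 had 9, 21, 37, 80 and 103 downstream counts in xe31, against 1, 1, 0, 1 and 4 in WT. The 5 hours of xe31, 0.250 to 4.25 per 1000 gene counts, all lie above WT, 0 to 0.142 (log2 change 5.12 ± 0.49 SE). pgl-3 had 86, 96, 115, 134 and 184 in xe31, against 27, 27, 22, 15 and 11 in WT. Its WT window thus held reads of its own, and the ratio was 5.80-fold higher in xe31 (interval 4.70 to 7.22; log2 change 2.50 ± 0.29 SE, adjusted p = 5.37e-08 by edgeR). deps-1 had 26, 33, 33, 55 and 71 in xe31, against 6, 14, 11, 20 and 10 in WT, a 4.45-fold higher ratio (interval 3.34 to 6.01; log2 change 2.17 ± 0.33 SE, adjusted p = 2.51e-06 by edgeR).

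Of the Argonaute genes prg-1 changed most. It had 144, 232, 305, 449 and 530 downstream counts in xe31, against 19, 18, 17, 10 and 12 in WT. The ratio climbed hour by hour within xe31, 7.31, 14.6, 20.998, 33.6 and 43.1 per 1000 gene counts, while WT stayed between 0.775 and 1.31 (21.5-fold over the window, interval 17.0 to 27.4; log2 change 4.28 ± 0.33 SE, adjusted p = 2.16e-11 by edgeR). wago-1 had 35, 49, 42, 67 and 72 in xe31, against 9, 5, 13, 13 and 7 in WT (6.14-fold, interval 4.49 to 8.56; log2 change 2.59 ± 0.33 SE, adjusted p = 2.47e-07 by edgeR). csr-1 had 87, 95, 83, 135 and 133 in xe31, against 37, 31, 29, 21 and 21 in WT (3.68-fold, interval 3.05 to 4.47; log2 change 1.87 ± 0.30 SE, adjusted p = 5.63e-06 by edgeR). For all 8 called genes the 5 xe31 ratios of this window lay above the 5 WT ratios, which 30.3% of all 11263 genes tested shared.

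**Figure D3:**
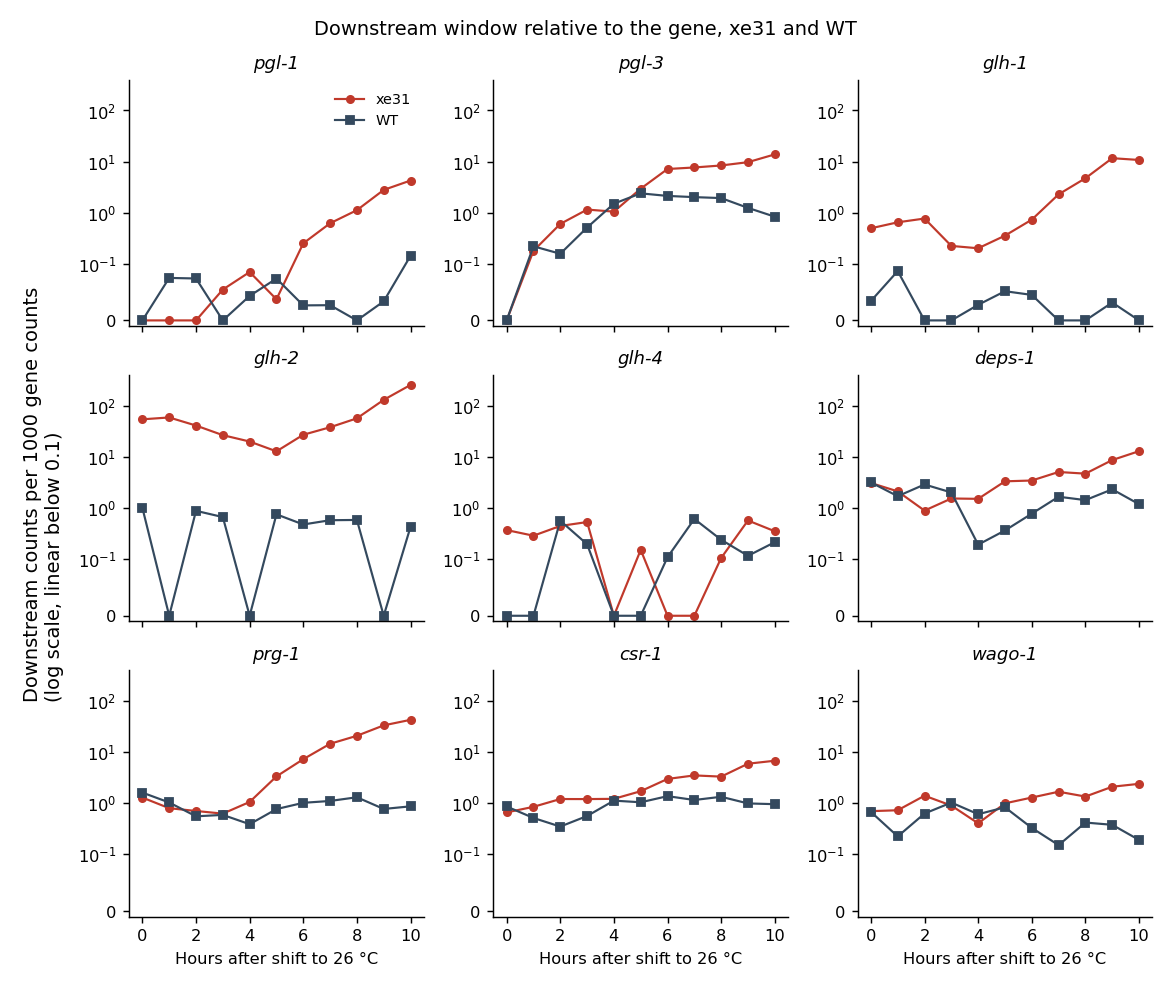
Downstream counts per 1000 gene counts (vertical, log scale that is linear below 0.1) by hour after the shift (horizontal) for the 9 genes, with circles for xe31 and squares for WT, 1 library per point. glh-1 and glh-2 of xe31 lie above WT at all 11 hours, 0 h included, the other called genes lie above WT from 6 h on, and glh-4 overlaps WT.

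glh-1 and glh-2 had reads past their ends in xe31 from 0 h on. In the early window they were the 2 of 9 genes called higher in readthrough, beside 0.879% of all 11263 genes tested. Both passed the filter of this test only through their xe31 counts. Nothing is therefore read from their early calls, adjusted p or rank, and the counts are given as a description. glh-2 had 65, 67 and 57 downstream counts in xe31 at 0, 1 and 2 h, against 1, 0 and 1 in WT, which is 54.4, 59.2 and 41.1 per 1000 gene counts in xe31 and 0 to 1.00 in WT. The 0 h library of xe31, from animals grown at 15 °C alone, thus held 65 of these counts against 1 in WT. The fitted log2 change over the whole window was 6.05 ± 0.68 SE. glh-1 had 15, 16 and 19 in xe31 at these hours, against 1, 2 and 0 in WT (15.8-fold over the window, interval 5.10 to 79.1, log2 change 3.83 ± 0.82 SE). Without any 1 of the 3 hours only glh-2 was called. With upstream counts in place of gene counts as the base of the ratio, its value was 0.43 and missed the threshold.

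The ratio of glh-2 then dropped within xe31, to 26.7, 20.0 and 12.8 per 1000 gene counts at 3, 4 and 5 h, before it climbed again. glh-1 had 0.223, 0.200 and 0.354 at those hours in xe31, below its 0.493 at 0 h. The other 7 genes had between them no early call: prg-1 had 13, 8 and 8 downstream counts in xe31, against 15, 9 and 6 in WT, and pgl-1 had 0, 0 and 0 in xe31, against 0, 1 and 1 in WT. A count of 0 in 45058 gene counts allows up to 0.0666 per 1000 for pgl-1 in early xe31. The late effect minus the early effect on readthrough, tested after these values had been seen, was called higher for 3 of 9, prg-1, deps-1 and pgl-1, beside 9.35% of all genes. It was 4.44 ± 0.70 for prg-1 (adjusted p = 2.31e-04 by edgeR) and 2.59 ± 0.74 for deps-1 (adjusted p = 0.0251 by edgeR). pgl-1 passed as well, and its fitted size depends on the early counts of 0. It passed the filter only through its xe31 counts, so nothing is read from that call. Without 1 h or without 2 h only prg-1 was called, and deps-1 also missed the threshold without 0 h.

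Upstream windows held enough reads for the test for glh-2 and pgl-3 alone, and both passed its filter only through their xe31 counts, so nothing is read from their calls. Of 4058 genes tested, 54.8% were called higher in late xe31. glh-2 had 10, 26, 37, 92 and 188 upstream counts in xe31, against 1, 2, 1, 1 and 1 in WT (log2 change 5.48 ± 0.45 SE). pgl-3 had 13, 18, 27, 21 and 38 in xe31, against 2, 1, 1, 0 and 3 in WT (log2 change 3.84 ± 0.48 SE). With upstream counts as the base of the ratio only glh-2 passed the filter, at a log2 change of 2.27. The other 7 genes had 3 to 44 upstream counts in all 5 late xe31 libraries together.

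Protein-coding genes next to the 9 in RefSeq order (assembly WBcel235, names only) were looked at after these values were known. The largest called increases were in nhr-249, frpr-10 and bgnt-1.4. nhr-249, next to pgl-1, had 0.258 to 2.57 CPM in late xe31 against 0.130 to 0.416 CPM in WT (log2 change 1.95 ± 0.25 SE, adjusted p = 1.43e-04 by edgeR). frpr-10, next to csr-1, had 0.516 to 1.497 CPM in xe31 against 0.362 to 0.457 CPM in WT (log2 change 1.38 ± 0.19 SE). bgnt-1.4, next to pgl-3, had 9.56 to 13.8 CPM in xe31 against 4.60 to 6.59 CPM in WT (log2 change 0.99 ± 0.12 SE). Next to glh-1, sacy-1 (0.086 ± 0.044) and let-383 (0.21 ± 0.26) did not pass, and next to glh-2, C55B7.11 was lower (-0.40 ± 0.05) and che-1 did not pass the filter, with at most 0.0851 CPM in late xe31. Other called decreases were in T12F5.2 next to glh-4 (-0.84 ± 0.09) and D2030.7 next to prg-1 (-0.40 ± 0.05). R06C7.2 next to wago-1 (-0.38 ± 0.07) and him-3 next to pgl-1 (-0.13 ± 0.04) were called lower too. Smaller called increases were in Y65B4BL.7 (0.48 ± 0.08) and Y65B4BL.4 (0.21 ± 0.05) next to deps-1 and in lin-59 (0.26 ± 0.05) next to glh-4. In the catalytic-dead strain nhr-249 (-0.42 ± 1.11) and bgnt-1.4 (-1.64 ± 0.94) lay below WT and frpr-10 (2.03 ± 0.68) above, none of them called. Whether reads past the gene ends enter the counts of these neighbours was not tested.

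Deeper reads of the same 6 h and 10 h RNA gave the downstream windows more counts. glh-2 had 267 and 3208 in xe31 at 6 h and 10 h, against 7 and 9 in WT, glh-1 had 299 and 2418 against 14 and 8, prg-1 had 1023 and 3386 against 65 and 88, and pgl-1 had 59 and 697 against 4 and 6. The ratios over both hours were 233-fold higher in xe31 for glh-2 (exact 95% interval 144 to 409), 124-fold for glh-1 (81.6 to 198), 82.3-fold for pgl-1 (44.5 to 172) and 28.4-fold for prg-1 (24.2 to 33.6). glh-4 had 16 and 34 in xe31, against 17 and 16 in WT, 1.65-fold (1.04 to 2.65). Upstream windows gained reads as well: glh-2 had 1076 in xe31 against 11 in WT, pgl-3 253 against 13 and csr-1 73 against 2. The upstream gain was smaller for glh-1, glh-4, deps-1 and wago-1. For pgl-1 and prg-1 its interval included no change. With 1 residual degree of freedom edgeR called 0 of 9 genes, as it called 0% of 13419 genes. At an unadjusted p under 0.05, 7 were higher in readthrough, beside 30.0% of all genes. Of these, glh-2 and pgl-1 passed the filter only through their xe31 counts. In gene level edgeR called 0 of 9 and 0% of 18213 genes, with 0 of 9 at an unadjusted p under 0.05, and DESeq2 called 2 lower, pgl-1 and pgl-3, beside 6.76% of all genes. deps-1 had 158 and 130.1 CPM in resequenced xe31, against 169 and 203 CPM in WT. These libraries add reads and no new animals.

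In the catalytic-dead strain both libraries of 7 of the 9 genes lay below both WT libraries, as they did for 30.7% of 17212 genes, and glh-1 and prg-1 overlapped WT. edgeR called none of the 9. wago-1 had 255 and 327 CPM in the mutant at 6 h and 10 h, against 740.2 and 982 CPM in WT (log2 change -1.56 ± 0.26 SE), and deps-1 had 77.0 and 99.9 CPM against 205 and 287 CPM (-1.47 ± 0.28). The values were -1.29 ± 0.27 for pgl-3, -1.15 ± 0.30 for pgl-1, -1.08 ± 0.30 for glh-4, -1.01 ± 0.30 for glh-2 and -0.96 ± 0.27 for csr-1. glh-1 had 712 and 739 CPM in the mutant, against 842 and 588 CPM in WT (0.043 ± 0.287), and prg-1 329 and 435 CPM against 349.6 and 315 CPM (0.19 ± 0.29).

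With 1 residual degree of freedom edgeR called 0 of 9 (adjusted p from 0.0573 to 0.932), beside 1.16% of 17212 genes called in either direction. At an unadjusted p under 0.05, 7 were lower, beside 11.4% of all genes, and DESeq2 called 3 lower, wago-1, deps-1 and pgl-3, beside 9.64%. Both mutant libraries were nearest a much earlier WT hour of the time course, as given above. The 9 oocyte markers summed to 304 and 426 CPM at the lowest and highest in the mutant, against 1849 and 8185 CPM in WT, the 10 sperm markers to 57.9 and 162 against 498 and 743, and the 20 other germline markers to 1225 and 1642 against 2383 and 3003. By edgeR, 2 oocyte markers and 1 sperm marker were called lower and none of the germline list, beside 80 of 17212 genes. Of 7 epidermis markers 3 were higher, beside 120 of all genes, and 1 was lower. With so few calls, a missing call does not show that the germline list was unchanged. At an unadjusted p under 0.05 by edgeR, all 9 oocyte, 8 of 10 sperm and 5 of 20 germline markers were lower, beside 11.4% of all genes. Of the germline markers 2 were higher. The part of stage or germ cell number in the levels of the granule genes was not tested.

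The catalytic-dead effect minus the xe31 effect of the resequenced libraries, each over its own WT, was called for 0 of 9 genes by edgeR, beside 0.0634% of 18925 genes in either direction. At an unadjusted p under 0.05 it was lower for 7, beside 9.78% of all genes, and DESeq2 called 2 lower, pgl-3 and wago-1, beside 7.85% of 17090 genes. The size was -1.32 ± 0.22 for wago-1 and -1.13 ± 0.21 for pgl-3 on the log2 scale, and 0.11 ± 0.27 for glh-1.

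Readthrough was called higher in the catalytic-dead strain for glh-1, glh-2, wago-1, deps-1, prg-1 and csr-1, beside 46.4% of 10972 genes. glh-1 and glh-2 passed the filter only through their mutant counts, and pgl-1 and glh-4 did not pass it, so the number of calls is partly set by the filter. Nothing is read from the calls of glh-1 and glh-2 here. glh-1 had 148 and 235 downstream counts in the mutant at 6 h and 10 h, against 0 and 0 in WT. The limit of 3 counts over both WT libraries makes the ratio at least 126-fold higher in the mutant. glh-2 had 338 and 235, against 1 and 3 in WT, a 270-fold higher ratio (exact 95% interval 105 to 993, log2 change 7.96 ± 0.80 SE). The ratio of glh-2 was 83.5 per 1000 gene counts at 6 h and 53.0 at 10 h in the mutant, while it climbed between these hours in xe31.

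wago-1 had 189 and 246 downstream counts in the mutant, against 17 and 10 in WT, 44.4-fold in the ratio (interval 30.1 to 68.1; log2 change 5.49 ± 0.64 SE, adjusted p = 0.0043 by edgeR). deps-1 had 61 and 155, against 20 and 27 (11.8-fold, interval 8.59 to 16.6; log2 change 3.43 ± 0.58 SE, adjusted p = 0.0071 by edgeR). prg-1 had 102 and 102, against 16 and 19 (4.94-fold; log2 change 2.25 ± 0.67 SE, adjusted p = 0.0365 by edgeR), and csr-1 39 and 60, against 26 and 19 (4.15-fold; log2 change 1.98 ± 0.60 SE, adjusted p = 0.0386 by edgeR). With library size in place of gene counts as the base, csr-1 stood at 0.98 and lost its call (adjusted p = 0.243 by edgeR). pgl-3 was the gene tested and not called: it had 9 and 12 in the mutant, against 45 and 15 in WT (0.803 times the WT ratio, interval 0.464 to 1.34; log2 change -0.14 ± 0.65 SE, adjusted p = 0.886 by edgeR). pgl-1, with 2 and 6 counts in the mutant against 2 and 2 in WT, and glh-4, with 0 and 0 against 2 and 1, did not pass the filter. Upstream windows gained reads relative to the gene too. The mutant had 131 upstream counts against 2 in WT for glh-2 and 43 against 0 for wago-1. deps-1 had 47 against 3 (40.3-fold, interval 13.0 to 202), glh-1 33 against 12 and csr-1 8 against 0. For prg-1, pgl-1, pgl-3 and glh-4 the interval included no change.

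Values of both mutants side by side differ in their order: pgl-3 and prg-1 had the higher ratio in resequenced xe31, 11.6 and 27.5 per 1000 gene counts against 1.30 and 4.54 in the catalytic-dead strain, and wago-1 and deps-1 the lower one, 3.22 and 8.55 against 12.7 and 20.7. The difference itself, tested after these values had been seen, was called for 0 of 9 by edgeR, as for 0% of 13808 genes; at an unadjusted p under 0.05 it was lower for 1, pgl-3, beside 2.31% of all genes. It was -3.14 ± 1.27 for pgl-3, -2.37 ± 1.13 for prg-1, 2.66 ± 1.2002 for wago-1 and 1.01 ± 0.88 for deps-1 (log2, SE, 2 residual degrees of freedom), which sets no gene of the mutants apart by that test.

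**Figure D4:**
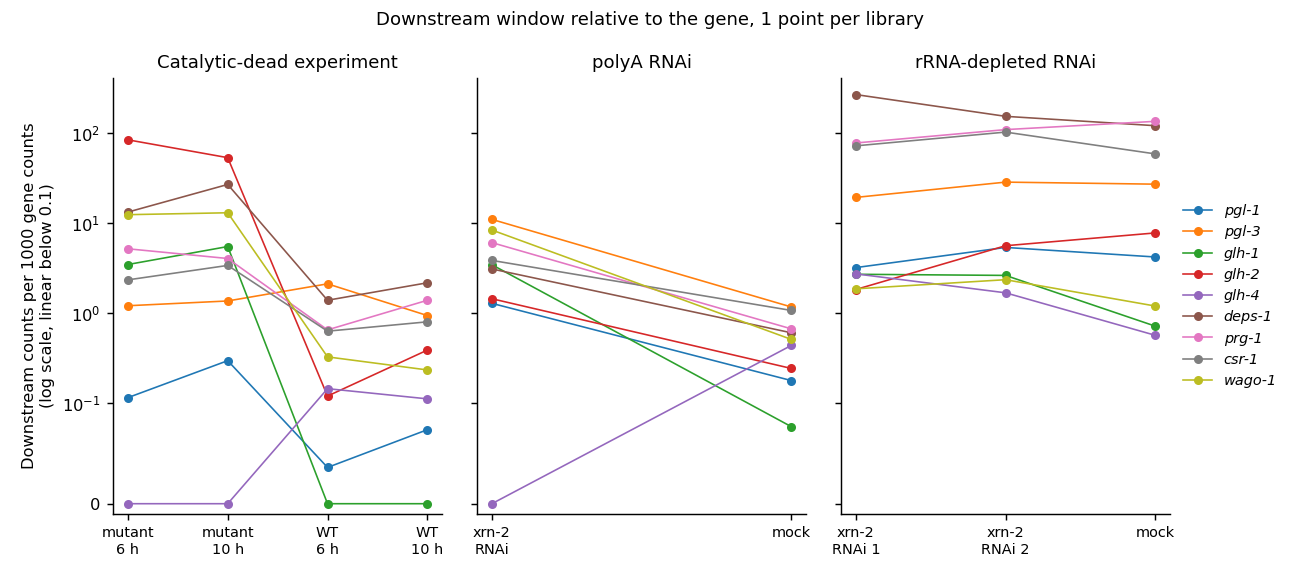
Downstream counts per 1000 gene counts (vertical, log scale that is linear below 0.1) for the 9 genes in the catalytic-dead experiment, the polyA RNAi pair and the rRNA-depleted RNAi libraries, 1 point per library, with lines joining the points of a gene. glh-2, deps-1, wago-1 and glh-1 are higher in both catalytic-dead libraries than in their WT, and all genes but glh-4 are higher in polyA xrn-2 RNAi than in mock.

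With RNAi in place of a mutation, the polyA pair has 1 library a side and no test. The level of all 9 genes was below mock in xrn-2 RNAi, as for 31.7% of 13970 genes with at least 100 counts, and 2 of the 9 were over 2-fold lower, beside 7.23%. glh-2 had 46.5 CPM in xrn-2 RNAi against 112 CPM in mock (log2 ratio -1.27, exact 95% interval -1.35 to -1.196, counting error only), and pgl-3 had 71.6 against 164 (-1.19, -1.26 to -1.13). glh-1, with 527 against 714 CPM, moved least (-0.44, -0.46 to -0.41). The log2 ratio had a median of 0.37 over the 13970 genes, and with TMM factors, which move that median to -0.019, 8 of the 9 were over 2-fold lower, all but glh-1, beside 11.6% of these genes. The oocyte markers summed to 373 CPM in xrn-2 RNAi against 1854 CPM in mock and the other germline markers to 1360.5 against 2095, and their part in these ratios was not tested.

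Relative to the gene, downstream counts of 8 of the 9 genes were above mock in polyA xrn-2 RNAi. So were those of 78.5% of 11930 genes with at least 1 downstream count, so the count of 8 does not set these genes apart. glh-1 had 81 against 2 in mock (44.9-fold, exact 95% interval 12.0 to 377), wago-1 131 against 13 (16.3-fold, 9.21 to 31.4), pgl-3 35 against 7 (9.35-fold, 4.09 to 24.9) and prg-1 42 against 6 (9.03-fold, 3.82 to 26.0). glh-2 had 3 against 1, and its interval of 0.476 to 311 includes no change at this depth. glh-4 had 0 against 2.

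The rRNA-depleted libraries, which keep RNA without a polyA tail, had far more downstream reads for some genes in either treatment. prg-1 had 77.0 and 108 downstream counts per 1000 gene counts in xrn-2 RNAi against 134 in mock, deps-1 had 265 and 152 against 119.8, csr-1 71.6 and 102 against 58.3, and pgl-3 19.2 and 28.4 against 26.9. glh-1 had 2.70 and 2.62 in xrn-2 RNAi against 0.719 in mock (48 against 7 counts, 3.69-fold, exact 95% interval 1.66 to 9.68), and glh-2 had 1.83 and 5.60 against 7.76. The 2 xrn-2 RNAi libraries lay on both sides of mock for pgl-1 and pgl-3, and 1 mock library gives no spread of its own.

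Gene levels in these 3 libraries gave 0 of 9 calls by edgeR, as for 0% of 15917 genes, 0 of 9 at an unadjusted p under 0.05 and 0 by DESeq2. wago-1 had 381 and 308 CPM in xrn-2 RNAi against 385 CPM in mock, pgl-1 274 and 248 against 306, and glh-2 68.4 and 43.1 against 53.0. Log2 changes ran from -0.44 ± 0.35 for glh-1 to 0.073 ± 0.398 for glh-2, with 8 of 9 below 0. The xrn-2 transcript itself stood at 72.7 and 65.9 CPM in these xrn-2 RNAi libraries against 79.9 CPM in mock.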

How the data were processed

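RNA libraries of whole L4 animals were analysed (35 of 51 samples; the 16 chromatin samples were not analysed here). The authors deposited whole-number read counts per gene and per window downstream and upstream of each gene, per the file headers, on build ce10, per the submitters' processing notes. No aligner, counter, strand or window length is given in the sources used here. Libraries were made with the TruSeq Standard mRNA kit or, after rRNA depletion, with the NuGEN Ovation Universal system, per the labels' protocols. Of the deposited columns, 12 match no sample used here and were left out.

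The 9 genes, the other gene lists and the windows of hours (0 to 2, 3 to 5 and 6 to 10 h) were chosen with earlier results of these data known. Named list genes are up to 3 per list past the threshold in late xe31 with the largest absolute change and a mean log2 CPM of at least 2. Likeness is Pearson's r of log2 CPM among genes with a mean of at least 4. Counts were tested with edgeR 4.0.16 (R 4.3.3): TMM, filterByExpr at a minimum count of 10, quasi-likelihood tests and BH adjustment over all genes tested at 0.05. The time-course fit had hour as a block and 8 residual degrees of freedom. The catalytic-dead, resequenced and rRNA-depleted fits had 1. For readthrough a gene needed 20 or more downstream counts summed over the fit and, on average, 10 or more in the gene itself. Late minus early readthrough, resequenced readthrough, catalytic-dead minus xe31 readthrough, the neighbouring genes and the nearest WT hours were added after values had been seen. The polyA pair was compared by total-count CPM with a pseudocount of 1. Intervals are exact binomial at 95% and, like the limit of 3 counts behind a count of 0, cover counting error only. PCR reads without molecular identifiers are not independent molecules. No label says that libraries come from separate cultures, so the spread behind each p-value may be technical. Alternatives used DESeq2 1.42.0, limma 3.58.1, other filters, other blocks, a shifted WT hour and libraries left out. No levels per kilobase, and so no order of levels between genes, are given, since exon lengths of the files' annotation were not used here. Symbols were found for 42362 of 44200 gene identifiers. The fits were tested on simulated data.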

Additional observations from a re-analysis of the deposited data

Results flagged for a closer look

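The effect of xe31 differed between the late and the early hours for 4 genes in gene level, by a test of the difference itself: glh-2 (-0.31 on the log2 scale), glh-4 (-0.26), wago-1 (-0.33) and deps-1 (-0.56). In each the early value lay above that of the late hours. In readthrough the effect was larger in the late hours for pgl-1 (7.90, a fitted size that rests on early counts of 0 in xe31), prg-1 (4.44) and deps-1 (2.59). pgl-1 passed the filter only through its xe31 counts, so nothing is read from its call. No group of these data has 4 to 10 samples of 1 condition, so no single library was tested against its group.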

How the results depend on the processing

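No paired analysis was possible because the labels give the RNA libraries compared an hour or a treatment and no shared replicate numbers. Strains were matched by hour, as a block in the fits reported, and counts with no hour block are given here. Of the single-gene values that the text or its plots give, 601 recomputed ones kept direction and side of the threshold, 46 lost a call, 29 gained one and 18 changed sign. The cause was not tested for any of them. Late xe31 had 5 genes called lower, against 1 with no hour block, 3 with WT 1 hour earlier and 3 with WT 1 hour later. Of all genes, 3563 were called lower in the main fit, against 780, 1800 and 3054 in these settings. With WT 1 hour earlier the late log2 change was 0.083 for glh-2 and 0.018 for pgl-3, and with WT 1 hour later 0.069 for prg-1 and 0.076 for csr-1. csr-1 ranged from -0.055 to 0.036 as late hours were left out, and glh-1 lost its call without 8 h or 9 h. In early xe31, 2 genes were called higher, against 0 without a filter, with no hour block, with WT 1 hour later or without any 1 of the 3 hours. Of all genes, 1142 were called higher in the main fit. This was 1081 without a filter, 8 with no hour block and 496 with WT 1 hour later. With WT 1 hour later 1 was called lower, pgl-3 (-0.30), and the values that turned without a call were -0.042 for glh-2, -0.20 for glh-4, -0.14 for deps-1 and -0.17 for prg-1. csr-1 was -0.068 with WT 1 hour earlier. As early hours were left out, glh-1 ranged from -0.048 to 0.0067, pgl-1 from -0.067 to 0.0095 and prg-1 from -0.0049 to 0.083. WT 1 hour earlier gave 3 higher in the middle window, beside 2567 of all 17081 genes. The late minus early effect was called lower for 2 to 4 genes as hours were left out, beside 1052 to 2843 of all genes. DESeq2 called 1 gene lower in the slope difference, 3 in the catalytic-dead strain, 2 in resequenced xe31 and 2 in catalytic-dead minus xe31. Beside these, DESeq2 called 4.37%, 9.64%, 6.76% and 7.85% of all genes lower. In the catalytic-dead strain edgeR called 4 lower with no hour block and 1 without a filter. Of all genes, 601 of 17212 and 410 of 23569 were called lower in these settings, against 80 in the main fit. glh-1 of the catalytic-dead strain was -0.054 by DESeq2. glh-2 with rRNA depletion was -0.28 without xrn-2 RNAi replicate 1 and 0.32 without xrn-2 RNAi replicate 2. TMM factors put 8 genes over 2-fold lower in polyA xrn-2 RNAi, beside 11.6% of 13970 genes.

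For readthrough, upstream counts as the base leave 1 gene to test, glh-2, and gave 1 call in late xe31, 0 in early xe31 and 0 for late minus early. Early xe31 had 1 call with limma at a pseudocount of 1 or 5, beside 86 and 63 of all 11263 genes called higher. Without any 1 hour it had 1 call, beside 23 to 67 of all genes. Late minus early had 6 calls with limma at a pseudocount of 1 and 8 at 5, beside 2891 and 3653 of all 11263 genes called higher. The main fit called 9.35% of all genes higher, so calls rose with this method well beyond these genes. As hours were left out, late minus early had 1 to 4 calls, beside 449 to 1497 of all genes called higher. Resequenced xe31 had 8 calls with library size as the base and 3 with limma at a pseudocount of 5. Beside them, 2825 and 627 of all 13419 genes were called higher. glh-4 ranged from -1.30 to 0.51 in late xe31 as hours were left out, and pgl-3 was 0.15 in the catalytic-dead strain with limma at a pseudocount of 5. Low downstream counts limit glh-4 in every experiment, pgl-1 in the catalytic-dead strain and glh-2 in the RNAi libraries. With 1 residual degree of freedom in the catalytic-dead, resequenced and rRNA-depleted fits, a missing call says little.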
